A study of Mus musculus with 60 samples.

Results

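Brown fat taken in the experiment named D3 was compared between mice that carry the diphtheria toxin receptor (DTR) in Foxp3-expressing cells and mice that do not. The 6 libraries were chosen by their titles, 3 of DTR+ and 3 of DTR- whole brown adipose tissue (BAT), out of 60 libraries in the series. The labels of all 6 libraries read male, 8 weeks old, strain B6.Foxp3.DTR and treatment DT, the toxin. The DTR- controls thus carry the toxin label too, and the 2 groups differ in the genotype label alone. In DTR+ mice the toxin kills cells that express Foxp3, chiefly regulatory T (Treg) cells, in every organ and not in fat alone. The titles also carry the word PBS, and the labels explain neither that word nor whether D3 counts days after the first dose. Further groups of whole tissue serve here for comparison only. These are BAT of the D4 experiment (4 DTR+ and 4 DTR- libraries) and subcutaneous adipose tissue (SAT) of the D3 experiment (3 DTR+ and 3 DTR- libraries), from males of the same strain, age and treatment label.

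Treg cells are T cells that restrain other immune cells. Brown fat burns fatty acids and glucose to make heat through the uncoupling protein Ucp1, and it makes new fatty acids from glucose at the same time. Interferon gamma acts through a DNA element called GAS and switches on Irf1. Type I interferons act through a complex that holds Stat2 and Irf9 and binds the element ISRE. The circadian clock runs on Bmal1 and Clock, which bind the E-box and drive their own repressors.

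RNA of whole tissue, 2 ng per sample, was amplified by Smart-seq2 from the poly(A) tail. The deposited values are counts of reads per gene. Totals were 5314909 to 5963724 counts in DTR+ libraries and 5747097 to 7248976 in DTR- libraries, and mitochondrially encoded genes took 12.1 to 14.1% of them. Levels are given as CPM, counts divided by the library's total and multiplied by a fixed factor, after scaling by trimmed means (TMM). This allows one gene to be compared between libraries but not 2 genes with each other. No label states whether the replicates came from different mice, so each p-value reflects only library-to-library spread, part of which may be technical.

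The tissue label was borne out by its defining genes. Ucp1, Cidea and Cox8b averaged 4818, 5272 and 2008 CPM in DTR+ BAT and 8744, 6509 and 2228 CPM in DTR- BAT, against 203, 391 and 204 CPM in DTR+ SAT of the same experiment (n = 3 libraries each). Removal of Treg cells could not be measured. Foxp3 (chromosome X, 7573644 to 7595245) had 0, 1 and 0 counts in the DTR+ libraries, against 2, 2 and 0 counts in the DTR- libraries, too few to compare. Il2ra, the CD25 chain that Treg cells carry, had 3, 12 and 9 counts in the DTR+ libraries, against 3, 6 and 6 counts in the DTR- libraries. Of 18 listed Treg genes only 2 had enough counts to be tested, and neither was called. Lymph node stroma and mesothelium were at or near 0, with summed levels of 0.157 to 0.889 CPM in DTR+ libraries and 0.788 to 3.12 CPM in DTR- libraries. Skeletal muscle genes summed to 1301 to 3212 CPM in DTR+ libraries and 574.9 to 2688 CPM in DTR- libraries, and 0 of the 18 listed were called.

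Of 11666 genes with enough counts, DTR+ BAT had 261 higher and 150 lower than DTR- BAT, 3.52% in all (edgeR quasi-likelihood F test, Benjamini-Hochberg adjusted p under 0.05). Every gene called had DTR+ and DTR- values that did not overlap, which was true of 12.7% of all genes with DTR+ above and of 11.9% with DTR+ below. Of the 261 higher genes 173 changed by more than 1 on the log2 scale, and of the 150 lower genes 24 did. The higher genes drew few reads in DTR- BAT, with a median of 11.6 CPM, and the lower genes more, with a median of 175.3 CPM, on a scale that takes no account of gene length. The median log2 fold change was 1.28 among the higher genes and -0.69 among the lower ones, against 0.02 over all genes tested.

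The counts depended on the scaling and on single libraries. Scaled by library totals instead of TMM, an alternative chosen after the data were seen, the median log2 fold of all genes moved to 0.22, and 565 genes were higher and 63 lower. With DTR+ replicate 1 left out 88 genes were higher and 30 lower, without DTR+ replicate 2 these were 144 and 50, and without DTR+ replicate 3 they were 173 and 117. Leaving out DTR- replicate 1 gave 182 and 76, and leaving out DTR- replicate 2 gave 179 and 98. DTR- replicate 1 lay farthest from the other 5 libraries on the first principal component, which held 42.9% of the variance.

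**Figure D1:**
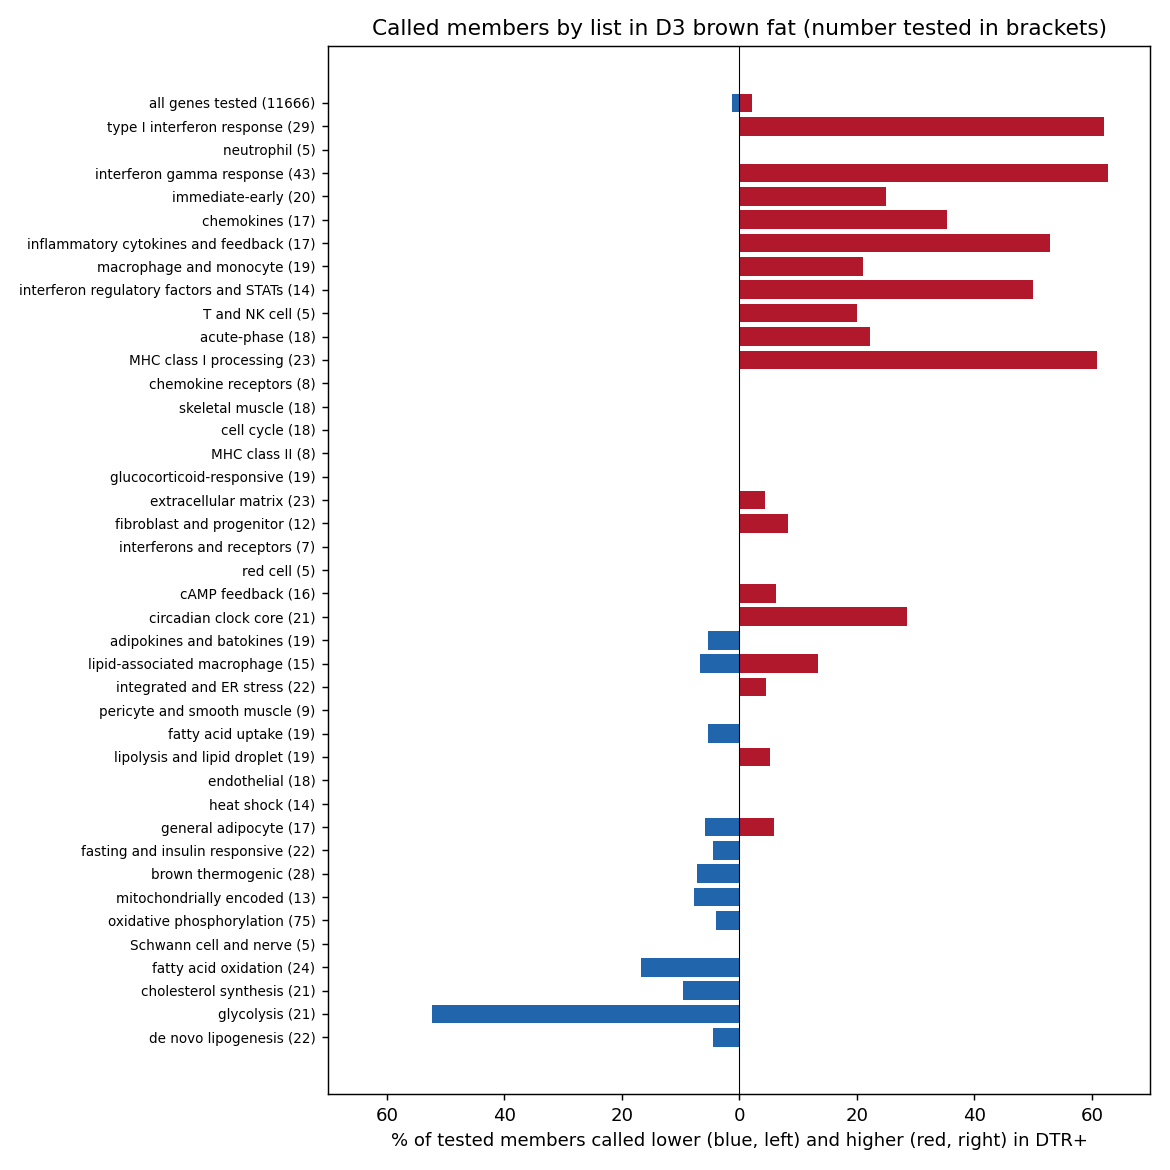
Share of tested members called in D3 BAT, for each gene list with at least 5 tested members and for all genes, with higher in DTR+ to the right in red and lower in DTR+ to the left in blue. The interferon gamma, type I interferon and MHC class I bars reach 62.8, 62.1 and 60.9% to the right, against 2.24% of all genes, and glycolysis, listed after values were seen, 52.4% to the left, against 1.29%. Some genes stand on several lists.

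Interferon genes rose in DTR+ BAT, among them the transcription factors that carry the signal. Irf1 (chromosome 11, 53770014 to 53778374), the transcription factor that relays interferon gamma, stood at 99.6, 97.5 and 85.1 CPM in the DTR+ libraries, against 25.2, 26.3 and 30.2 CPM in the DTR- libraries. The lowest DTR+ library was well above the highest DTR- library, and replicates of a genotype lay close together. Irf1 rose by 1.78 ± 0.14 on the log2 scale (SE, here and below derived from the F statistic, edgeR adjusted p = 6.4e-06). Its adjusted p was at most 0.00035 with any one library left out.

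Irf9, which gives the type I interferon complex its DNA-binding part, had 45.6, 58.9 and 44.2 CPM in DTR+ libraries, against 12.02, 16.9 and 13.5 CPM in DTR- libraries. The groups did not overlap, and the fold was 1.80 ± 0.19 (log2, SE, edgeR adjusted p = 0.00012). Irf7, which amplifies type I interferon, rose by 1.54 ± 0.20 (adjusted p = 0.00081). Stat3, Stat2 and Irf2 also rose, by 0.71, 1.25 and 0.98. Of 14 tested IRF and STAT genes 7 rose and 0 fell, where 2.24% of all genes rose, and the count was 4 without DTR+ replicate 1. The calls of Stat2 and Irf2 were each lost without DTR- replicate 1 or any single DTR+ replicate, that of Irf2 also without DTR- replicate 2, and that of Stat3 without DTR+ replicate 1. Irf8, of myeloid cells, and Irf4, of lymphocytes and fat cells, had overlapping groups. Irf4 ranged from 20.3 to 102 CPM within DTR+ BAT, and its fold of 1.40 ± 0.83 was not called. Stat5a, Stat5b, Stat6 and Irf3 lay between -0.14 and 0.11 on the log2 scale.

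The receptors and ligands of these pathways were measured too. Interferon gamma itself (Ifng) had 0 counts in all 6 libraries, which allows up to 0.175 CPM in DTR+ BAT and 0.149 CPM in DTR- BAT (3 counts over the 3 libraries of a group, counting error only). Of 15 listed interferons, receptors and their kinases 7 could be tested and 0 were called. Ifngr1, the binding chain of the interferon gamma receptor, had 155, 144 and 134 CPM in DTR+ libraries, against 122, 105 and 139.6 CPM in DTR- libraries, and these overlapped.

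Targets of interferon gamma rose widely. Of 48 listed genes 43 could be tested, and 27 rose and 0 fell, where 2.24% of all genes rose. Their median log2 fold was 1.20 against 0.02 over all genes, and 20 rose without DTR+ replicate 1. Igtp, an immunity-related GTPase that acts on vacuoles of intracellular pathogens, had 76.9, 77.03 and 74.5 CPM in DTR+ libraries, against 22.1, 22.1 and 20.3 CPM in DTR- libraries. Its 6 values formed 2 tight sets, and the fold was 1.82 ± 0.13 (log2, SE, edgeR adjusted p = 6.4e-06). Irgm2 and Iigp1, of the same GTPase family, rose by 2.34 and 2.30, and Gbp3 and Gbp2, guanylate-binding proteins, by 1.87 and 1.56. Cd274, which encodes the checkpoint ligand PD-L1, had 102, 95.5 and 71.3 CPM in DTR+ libraries, against 68.96, 51.4 and 64.4 CPM in DTR- libraries, and was not called (log2 0.54 ± 0.16, edgeR adjusted p = 0.074). How reads that match several members of the Gbp, Irg or H2 families were counted is not given in the sources used here, so the split between close copies is uncertain.

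Type I interferon genes, many of which also answer to interferon gamma, rose too. Of 32 listed 29 were tested, and 18 rose and 0 fell, where 2.24% of all genes rose (11 rose without DTR+ replicate 1). All 29 folds were above 0, with a median of 1.42. Rtp4, a chaperone-like antiviral protein, had 45.6, 50.6 and 38.4 CPM in DTR+ libraries, against 9.26, 7.72 and 10.4 CPM in DTR- libraries, a log2 fold of 2.29 ± 0.19 (SE, edgeR adjusted p = 1.6e-05). Isg15, a ubiquitin-like modifier, and Usp18, the protease that removes it, rose by 2.31 and 1.98. Zbp1, a sensor of Z-form nucleic acid, rose by 2.55, and Rsad2 (viperin) by 1.27.

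Antigen presentation was listed by MHC class. Of 23 genes for MHC class I molecules and the supply of their peptides, all were tested and 14 rose, where 2.24% of all genes rose. The median was 0.62, and 6 rose without DTR+ replicate 1. The immunoproteasome subunit Psmb8 had 123, 115 and 86.3 CPM in DTR+ libraries, against 29.2, 37.3 and 38.2 CPM in DTR- libraries, and the peptide transporter Tap1 had 79.4, 71.4 and 50.3 CPM in DTR+ libraries, against 17.9, 22.9 and 27.2 CPM in DTR- libraries. Neither overlapped between genotypes, with log2 folds of 1.63 ± 0.16 and 1.55 ± 0.19 (SE, edgeR adjusted p = 9e-05 and 0.00071). The class I chain H2-K1 and its partner B2m had smaller folds, H2-K1 rising by 0.57 and B2m by 0.62, and both calls were lost without DTR+ replicate 1 (adjusted p = 0.068 and 0.075). Of the 8 tested class II genes 0 were called, and 3 were without DTR- replicate 3. H2-Ab1 had 127, 113 and 106 CPM in DTR+ libraries, against 81.2, 78.99 and 123 CPM in DTR- libraries, where DTR- replicate 3 lay within the DTR+ values.

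**Figure D2:**
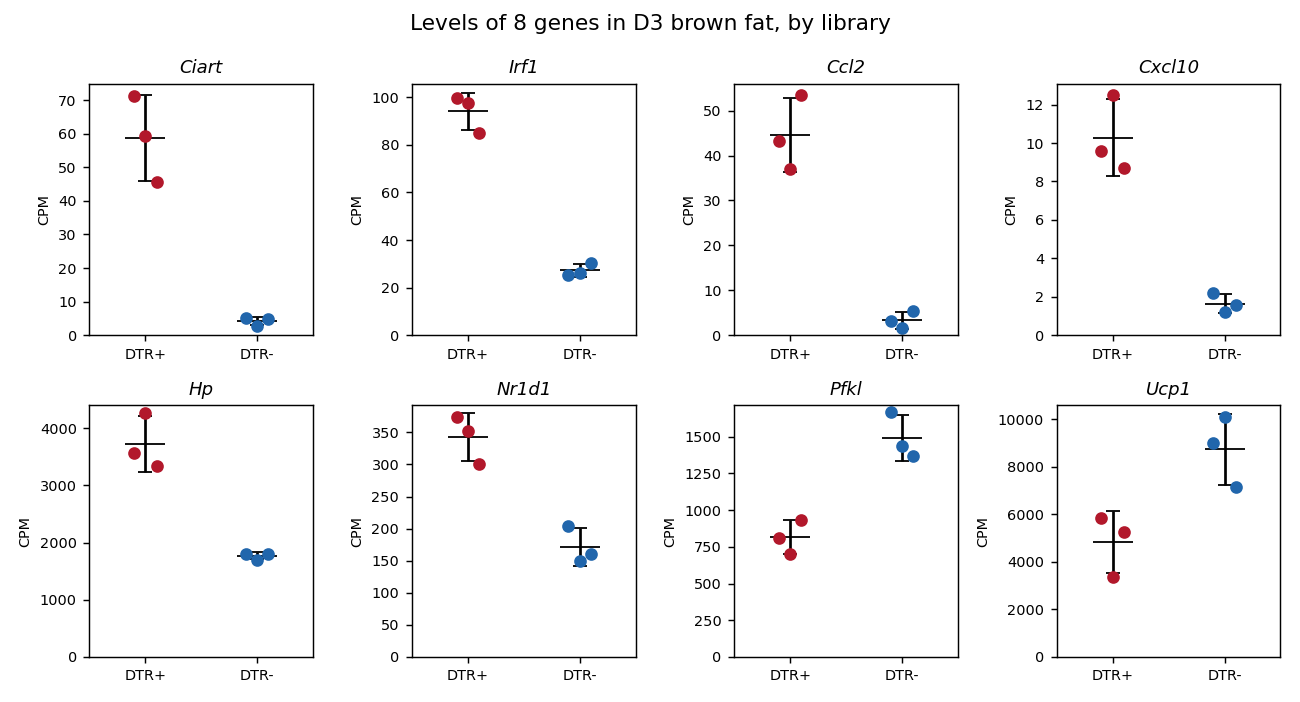
Levels in CPM (TMM-scaled, linear axes from 0) of 8 genes in the 3 DTR+ libraries (red, left) and 3 DTR- libraries (blue, right) of D3 BAT, with the mean as a line and the SD as a bar. In all 8 panels the genotypes do not overlap, but the edgeR test called 7 of them, Ucp1 being the exception.

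Sequence in front of 3 genes, picked as examples and not as typical members, shows the elements named above. Motifs were searched on both strands of the 250 bases before each RefSeq gene start, GAS as TTCNNNGAA, ISRE as GAAA, any 2 bases and GAAA, the E-box as CACGTG, and the kappaB element of NF-kB by its usual degenerate form. Of 32851 such windows in the mouse genome, 7.02% held a GAS match, 2.98% an ISRE match, 6.02% an E-box and 3.90% a kappaB match. Shown 5′ to 3′ on the strand of the gene, with matches in capitals, are Irf1 (chr11:53769764-53770013, plus strand, build GRCm38), Cxcl10 (chr5:92348890-92349139, minus strand) and Ciart (chr3:95882252-95882478, minus strand, without bases inside annotated transcripts). The Irf1 sequence holds a GAS match 90 bases and a kappaB match 13 bases before the RefSeq start, and Cxcl10 holds an ISRE match at 213 and kappaB matches at 159 and 103. Ciart holds E-boxes at 116, 58 and 44 bases. None of these matches overlaps another.
Irf1: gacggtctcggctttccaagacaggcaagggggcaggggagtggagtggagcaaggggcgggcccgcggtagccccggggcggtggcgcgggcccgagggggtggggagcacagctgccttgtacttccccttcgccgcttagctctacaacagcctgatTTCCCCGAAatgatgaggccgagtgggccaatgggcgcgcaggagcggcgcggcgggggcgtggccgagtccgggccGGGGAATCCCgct
Cxcl10: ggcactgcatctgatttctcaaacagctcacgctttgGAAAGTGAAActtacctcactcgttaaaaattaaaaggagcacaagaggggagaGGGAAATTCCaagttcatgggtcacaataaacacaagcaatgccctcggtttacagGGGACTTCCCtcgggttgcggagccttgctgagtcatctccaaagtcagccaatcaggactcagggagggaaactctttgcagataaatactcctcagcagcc
Ciart: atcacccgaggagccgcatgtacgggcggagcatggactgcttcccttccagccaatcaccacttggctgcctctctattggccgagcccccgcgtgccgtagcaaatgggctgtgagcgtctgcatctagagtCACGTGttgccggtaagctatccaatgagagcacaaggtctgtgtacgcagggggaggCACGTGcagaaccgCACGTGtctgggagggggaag

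Across the comparison, genes with a RefSeq window numbered 206 of the 261 higher, 113 of the 150 lower and 9087 of the 11666 tested. ISRE matches stood before 11.7% of the higher genes and 0 of the 113 lower ones, against 3.06% of those tested. GAS matches stood before 13.1% of the higher and 6.19% of the lower genes, against 7.04%. The kappaB shares were 10.7% and 3.54%, against 5.32%, and the E-box shares 8.25% and 4.42%, against 10.2%. A match is only a run of letters in this window, and these shares were not tested.

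Chemokines, the signals that draw leukocytes into tissue, included the largest folds of the comparison. Of 31 listed 17 could be tested, and 6 rose and 0 fell, where 2.24% of all genes rose. Ccl2 (chromosome 11, 82035571 to 82037453), which attracts monocytes through Ccr2, had 43.3, 36.95 and 53.4 CPM in DTR+ libraries, against 3.15, 1.49 and 5.30 CPM in DTR- libraries. The 2 sets are far apart, and the fold was 3.73 ± 0.33 (log2, SE, edgeR adjusted p = 9.5e-05, at most 0.002 with any one library left out). Ccl7, its neighbour in the genome with the same receptor, had 17.05, 12.1 and 16.2 CPM in DTR+ libraries, against 2.17, 0.594 and 1.43 CPM in DTR- libraries, a fold of 3.46 ± 0.38 (edgeR adjusted p = 0.0002).

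Cxcl10, which recruits T cells through Cxcr3, had 9.59, 12.5 and 8.72 CPM in DTR+ libraries, against 2.17, 1.19 and 1.57 CPM in DTR- libraries, and rose by 2.66 ± 0.37 (edgeR adjusted p = 0.0012), a call lost in the fit shared with D4 BAT (edgeR adjusted p = 0.066). Cxcl1, a neutrophil attractant, had 6.39, 4.38 and 4.28 CPM in DTR+ libraries, against 0, 0 and 0.429 CPM in DTR- libraries. With 2 of the DTR- libraries at 0, its fitted fold of 4.82 ± 0.77 depends on the prior count (edgeR adjusted p = 0.003). Cx3cl1, the membrane-bound fractalkine, and Ccl6 rose by 1.99 and 1.55. The call of Ccl6 was lost without DTR+ replicate 1, DTR+ replicate 2 or DTR- replicate 2. That call was also lost in the fit shared with D4 BAT (edgeR adjusted p = 0.21). Cxcl9, the other main interferon gamma chemokine, had 18.3, 15.5 and 17.6 CPM in DTR+ libraries, against 10.2, 3.42 and 9.02 CPM in DTR- libraries, did not overlap and was not called (edgeR adjusted p = 0.06). Cxcl12 and Ccl11, chemokines of stromal cells, had folds of -0.03 ± 0.12 and -0.13 ± 0.28 (log2, SE).

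Markers of the cells that such chemokines recruit were measured as well. Macrophage and monocyte genes summed to 426.8 to 488.3 CPM in DTR+ libraries and 183.4 to 328.5 CPM in DTR- libraries. Of 26 listed 19 were tested, and, where 2.24% of all genes rose, 4 rose and 0 fell. These were Plac8 (2.58 ± 0.51) and Ly6c2 (2.13 ± 0.54), which mark monocytes, and the signalling adaptors Tyrobp (0.93 ± 0.20) and Fcer1g (1.10 ± 0.26), all log2 with SE. All 4 calls were lost without DTR+ replicate 1 and again without DTR+ replicate 2, and 7 genes were called without DTR- replicate 3. These counts cover the list alone, and other called genes of leukocytes are not on it. Lcp1, an actin-bundling protein of leukocytes, rose by 1.36 ± 0.20 and stayed called with each library left out in turn. Lyz2, lysozyme of myeloid cells, had 224, 191 and 181 CPM in DTR+ libraries, against 62.5, 70.5 and 137 CPM in DTR- libraries. DTR- replicate 3 stood nearest to the DTR+ libraries, and Lyz2 was not called (edgeR adjusted p = 0.14). Adgre1 and C1qa, of tissue macrophages, were not called either, with log2 folds of 1.13 ± 0.34 and 0.34 ± 0.18. Of 15 tested genes of lipid-associated macrophages 2 rose and 1 fell, with 5 folds below 0 and a median of 0.16, and the list summed to 13071 to 14337 CPM in DTR+ libraries and 13869 to 15707 CPM in DTR- libraries. Trem2 and Capg rose, by 2.17 and 1.57, and the lysosomal protease Ctsd fell by 0.51 ± 0.11. The calls of Capg, Trem2 and Tyrobp were lost in the fit shared with D4 BAT (edgeR adjusted p = 0.06, 0.23 and 0.21). The calls of Trem2 and Ctsd were lost without any one of DTR+ replicates 1 and 2 and DTR- replicates 1 and 2, and 7 genes of that list rose without DTR- replicate 3. In bulk tissue, more cells of a type, more RNA per cell and expression of the same genes by other cells cannot be told apart.

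Lymphocyte genes were near the limit of detection. T and NK cell genes summed to 30.0 to 43.3 CPM in DTR+ libraries and 14.8 to 27.9 CPM in DTR- libraries. Of 31 listed 5 could be tested, and Il2rb, a chain of the IL-2 and IL-15 receptors, alone rose (2.14). Its call was lost without any one of DTR+ replicate 1, DTR+ replicate 2 or the 3 DTR- libraries. Cd3e, of the T cell receptor complex, had 8, 4 and 4 counts in DTR+ libraries, against 1, 10 and 2 counts in DTR- libraries. Cd4 had 5, 5 and 0 counts in DTR+ libraries, against 0 in each of the 3 DTR- libraries. Neutrophil genes summed to 16.0 to 19.1 CPM in DTR+ libraries and 7.09 to 9.80 CPM in DTR- libraries, with 0 of 5 tested called. B cell genes summed to 17.4 to 20.2 CPM in DTR+ libraries and 24.3 to 41.4 CPM in DTR- libraries, with 0 of 3 called. Whether these cell numbers play a part in the chemokine and interferon changes was not tested.

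Inflammatory cytokines, adhesion molecules, NF-kB subunits and feedback inhibitors were listed together. Of 30 listed 17 were tested, and 9 rose and 0 fell (5 without DTR+ replicate 1), where 2.24% of all genes rose. The inhibitor Nfkbia had 116, 151 and 104 CPM in DTR+ libraries, against 69.6, 53.8 and 61.1 CPM in DTR- libraries, a log2 fold of 1.01 ± 0.15 (SE, edgeR adjusted p = 0.0021). Relb and Nfkb2, of the non-canonical branch, rose by 1.40 and 1.40, and Tnfaip3 (A20) by 2.52, a call lost in the fit shared with D4 BAT (edgeR adjusted p = 0.087). Csf1, the macrophage growth factor, rose by 1.62, and the adhesion molecule Icam1 by 1.35. Both calls were lost without DTR+ replicate 1, that of Csf1 also without DTR+ replicate 2 or DTR- replicate 2, and that of Icam1 without DTR+ replicate 3. The cytokines themselves were scarce. Tnf had 12, 3 and 10 counts in DTR+ libraries, against 5, 4 and 4 counts in DTR- libraries, and Il6 had 1, 0 and 1 counts in DTR+ libraries, against 0, 0 and 1 counts in DTR- libraries.

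Acute-phase genes moved in part. Haptoglobin, Hp (chromosome 8, 109575128 to 109579172), which binds free haemoglobin and which fat secretes, had 3563, 4273 and 3340.0 CPM in DTR+ libraries, against 1808, 1701 and 1798 CPM in DTR- libraries. The DTR- libraries lay within a narrow band, and each DTR+ library was far above it. Hp rose by 1.07 ± 0.11 (log2, SE, edgeR adjusted p = 9.4e-05), and the call was lost in the fit shared with D4 BAT (edgeR adjusted p = 0.079). Of 18 tested genes on the list 4 rose and 0 fell, where 2.24% of all genes rose. Besides Hp these were Socs3, the inhibitor of Stat3 signalling (2.17), Stat3 (0.71) and the IL-1 receptor antagonist Il1rn (1.87). Socs3 was also counted on the list of inflammatory genes and Stat3 on that of IRF and STAT genes. Leaving out DTR+ replicate 1 left 2 and leaving out DTR- replicate 3 gave 6, and the calls of Stat3 and Il1rn were among those lost, that of Il1rn also without DTR+ replicate 3. Lcn2 and Itih4 did not overlap but were not called, with log2 folds of 1.33 ± 0.45 and 2.29 ± 0.69 (SE). Orm1, an acute-phase protein of liver, had 76.7, 50.1 and 64.1 CPM in DTR+ libraries, against 81.6, 92.5 and 94.6 CPM in DTR- libraries, lower in DTR+ without overlap and not called (edgeR adjusted p = 0.09). C3 and Cp had log2 folds of 0.18 ± 0.18 and 0.21 ± 0.16.

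Ciart (chromosome 3, 95878503 to 95882251) encodes Chrono, a repressor that binds Bmal1 within the clock. It had 71.2, 59.3 and 45.5 CPM in DTR+ libraries, against 5.12, 2.82 and 4.87 CPM in DTR- libraries. Each DTR+ library was many times above each DTR- library, and Ciart had the smallest p of all genes tested, with a log2 fold of 3.79 ± 0.25 (SE, edgeR adjusted p = 3.4e-06, at most 0.00014 with any one library left out). Of 21 tested clock genes 6 rose and 0 fell, where 2.24% of all genes rose. The count was 3 without DTR- replicate 3 or DTR+ replicate 1.

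Of the 6 risen clock genes Ciart and Bhlhe41 held an E-box in the window searched, 33.3%, against 31.2% of the 16 tested clock genes with a window. Nr1d1, Dbp, Hlf and Nfil3 held none there. Nr1d1 (Rev-erb alpha), which represses Arntl, had 374, 352 and 301 CPM in DTR+ libraries, against 205, 149 and 161 CPM in DTR- libraries, a fold of 1.00 ± 0.14 (log2, SE, edgeR adjusted p = 0.001). Its call was lost in the fit shared with D3 SAT (edgeR adjusted p = 0.14). Dbp and Hlf, PAR-domain factors of the output, rose by 1.86 and 0.98. Nfil3, which competes with those factors for DNA and also answers to cytokines, had 63.4, 32.9 and 39.3 CPM in DTR+ libraries, against 15.2, 16.9 and 16.03 CPM in DTR- libraries, and rose by 1.49. Bhlhe41, another E-box repressor, rose by 1.45. The calls of Dbp, Hlf and Bhlhe41 were each lost without DTR+ replicate 1 or DTR- replicate 3. Dbp and Hlf were also lost without DTR+ replicate 3, Bhlhe41 without DTR+ replicate 2, and Hlf without DTR- replicate 2.

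The rest of the clock did not pass the test. Arntl, which encodes Bmal1, had 26.3, 23.2 and 22.5 CPM in DTR+ libraries, against 15.96, 15.6 and 23.5 CPM in DTR- libraries, a log2 fold of 0.38 ± 0.20, and Clock had a log2 fold of 0.12 ± 0.16. The repressors Cry1 and Per3 lay below 0, at -0.43 ± 0.21 and -0.34 ± 0.22, and Per2 above it at 0.64 ± 0.27. Per1, which glucocorticoids and cAMP also induce, had 138, 84.4 and 97.8 CPM in DTR+ libraries, against 17.7, 54.9 and 54.7 CPM in DTR- libraries. It did not overlap, but DTR- replicate 1 was far below the other DTR- libraries, and it was not called (log2 1.32 ± 0.49, edgeR adjusted p = 0.27), though it was without DTR- replicate 1. The labels used here do not give the hour at which tissue was taken, so its part in these clock values was not tested.

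Glucocorticoid-responsive genes were listed beside the clock because the hormone sets it in peripheral tissue. Of 19 tested 0 were called, with a median of 0.39 against 0.02 over all genes, and 1 was called higher without DTR- replicate 1 and 1 lower without DTR- replicate 3. Fkbp5 had 3.55, 2.82 and 3.49 CPM in DTR+ libraries, against 0.591, 4.01 and 4.15 CPM in DTR- libraries. Tsc22d3 (Gilz) had 47.9, 52.8 and 50.1 CPM in DTR+ libraries, against 35.5, 53.3 and 54.7 CPM in DTR- libraries. Both overlapped, and in Fkbp5, Sgk1 and Pdk4 DTR- replicate 1 was the lowest of the 6 libraries.

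**Figure D3:**
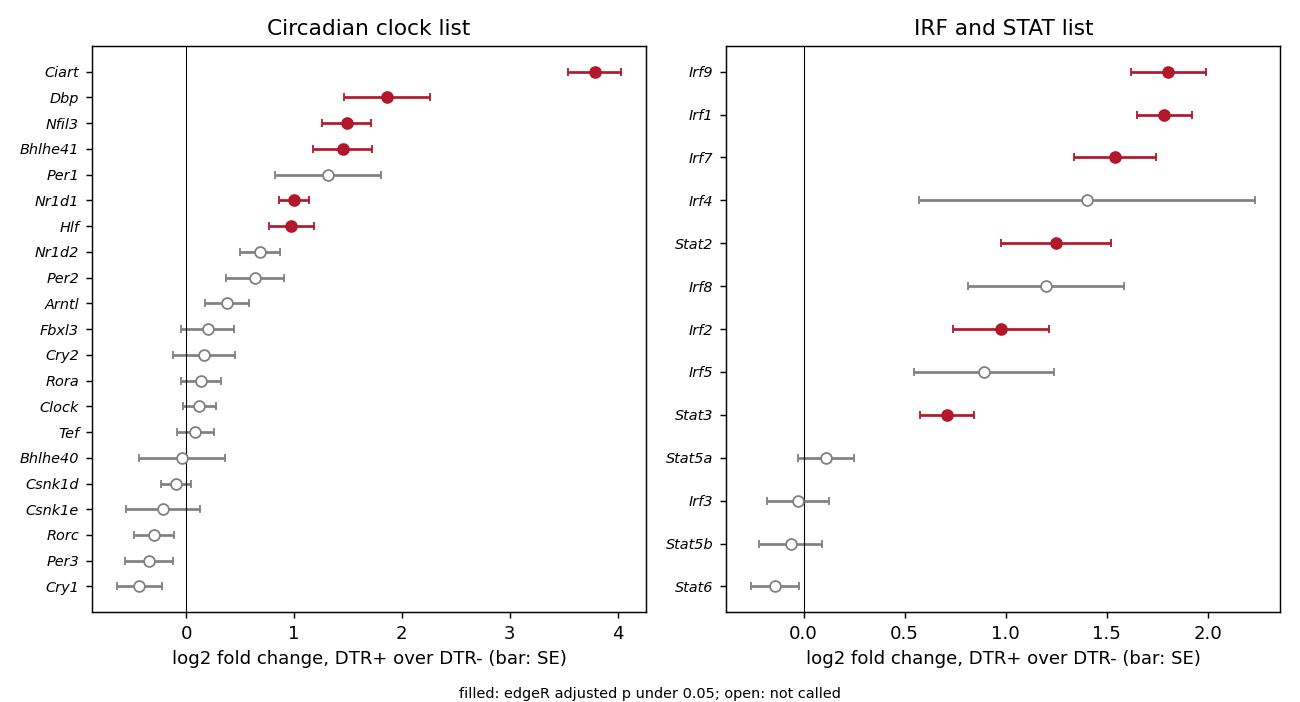
Log2 fold change (DTR+ over DTR-) with SE of the tested genes on the circadian clock list (left) and of 13 of the 14 on the IRF and STAT list (right) in D3 BAT, filled where edgeR's adjusted p was under 0.05. Ciart stands alone at 3.79, the core activators Clock and Arntl, at 0.12 and 0.38, are not filled, and 6 of the 13 IRF and STAT genes drawn are filled.

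Immediate-early genes, which cells induce within minutes of a stimulus, rose in 5 of 20 tested cases and 0 fell, where 2.24% of all genes rose. Without DTR- replicate 1 the number that rose was 10. Atf3 had 29.5, 16.4 and 34.1 CPM in DTR+ libraries, against 3.74, 5.34 and 5.44 CPM in DTR- libraries, and rose by 2.44 ± 0.29 (log2, SE, edgeR adjusted p = 0.00044). Egr2, Btg2, Fosl2 and Ier2 rose by 3.49, 1.58, 1.26 and 1.18. Fos and Nr4a1, strongly inducible members, were not called. Fos had 31.4, 27.1 and 28.4 CPM in DTR+ libraries, against 18.7, 2.52 and 0.572 CPM in DTR- libraries, and Nr4a1 had 885, 661 and 799.7 CPM in DTR+ libraries, against 63.8, 650.1 and 380.0 CPM in DTR- libraries. Their DTR- libraries spread over a wide range, DTR- replicate 1 being the highest of them for Fos and the lowest for Nr4a1. Of the 16 genes of the cAMP response Pde4b alone rose (1.41), and of 22 stress genes Atf4 alone (0.67), and both calls were lost without DTR+ replicate 1 or DTR- replicate 2. That of Atf4 was also lost without DTR+ replicate 2, DTR+ replicate 3 or DTR- replicate 3, and that of Ier2 without DTR+ replicates 1 or 2 or DTR- replicates 2 or 3. No heat shock gene was called among 14 tested.

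Genes that fell included enzymes of sugar and fat metabolism. Glycolysis was listed after values had been seen, so its count is a description. Of 21 genes 11 fell and 0 rose, where 1.29% of all genes fell, with a median of -0.74. The list summed to 24601, 20729 and 27414 CPM in the DTR+ libraries, against 50308, 42138 and 35341 CPM in the DTR- libraries, and these do not overlap. Pfkl, the liver-type subunit of phosphofructokinase, which commits glucose to glycolysis, had 808, 703 and 936 CPM in DTR+ libraries, against 1666, 1437 and 1367 CPM in DTR- libraries, and fell by 0.87 ± 0.12 (log2, SE, edgeR adjusted p = 0.0012). Pfkp, the platelet-type subunit, fell by 1.13 ± 0.15, while the muscle-type subunit Pfkm had overlapping groups (-0.11 ± 0.14).

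Down the pathway Aldoa, Gapdh, Eno1 and Pkm fell by 1.00, 0.94, 0.99 and 0.74 on the log2 scale. Gpd2, the mitochondrial glycerol-phosphate dehydrogenase by which brown fat passes electrons from glycolysis to respiration, had 939, 838 and 1006 CPM in DTR+ libraries, against 1961, 1499 and 1515 CPM in DTR- libraries, and fell by 0.84 ± 0.12 (edgeR adjusted p = 0.0016). The insulin-dependent glucose transporter Slc2a4 fell by 0.64 ± 0.16, a call lost without DTR+ replicate 1, DTR+ replicate 2, DTR- replicate 1 or DTR- replicate 2. These 7 genes of the list, Pfkp, Pfkl, Gpd2, Pkm, Eno1, Gapdh and Aldoa, stayed called with each library left out in turn, and 7 was the lowest count, reached without DTR+ replicate 1 or DTR+ replicate 2. The call of Pkm was lost in the fit shared with D3 SAT (edgeR adjusted p = 0.12). With library totals in place of TMM 9 fell, with a median of -0.53. DTR- replicate 1 was the highest of the 6 libraries for all 11 fallen genes.

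Other enzymes of sugar use were also called lower, Tkt and Pygl among them. Tkt, transketolase of the pentose phosphate pathway, had 2782, 2829.5 and 3858 CPM in DTR+ libraries, against 10158, 6416 and 6113 CPM in DTR- libraries (-1.26 ± 0.24, edgeR adjusted p = 0.048), and its call was lost without DTR+ replicate 1 or DTR+ replicate 2. Pygl, a glycogen phosphorylase, fell by 1.16 ± 0.20, a call lost without DTR+ replicate 1 or DTR- replicate 1.

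Fat synthesis lay lower but was seldom called, where 1.29% of all genes fell. In de novo lipogenesis 20 of 22 tested genes had folds below 0, with a median of -0.89, and 1 was called. That was Me1, malic enzyme, which supplies NADPH, at 239.9, 183 and 317 CPM in DTR+ libraries, against 979, 682 and 559 CPM in DTR- libraries (-1.58 ± 0.28, edgeR adjusted p = 0.041). Acly, which makes acetyl-CoA from citrate, had 2116, 2059 and 4589.9 CPM in DTR+ libraries, against 11869, 7873 and 8426 CPM in DTR- libraries. The groups did not overlap, yet DTR+ replicate 3 was far above the other DTR+ libraries and Acly was not called (log2 -1.68 ± 0.42, edgeR adjusted p = 0.15). Fasn, fatty acid synthase, was not called either (-1.13 ± 0.34, edgeR adjusted p = 0.2). Leaving out DTR+ replicate 3 gave 10 calls, and leaving out DTR+ replicate 1 or DTR+ replicate 2 gave 0. In cholesterol synthesis 19 of 21 folds were below 0 and 2 genes fell, Nsdhl by 1.19 ± 0.18 and Dhcr7 by 1.01 ± 0.25, the call of Dhcr7 being lost without any library but DTR- replicate 3. Without DTR+ replicate 3 there were 4.

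**Figure D4:**
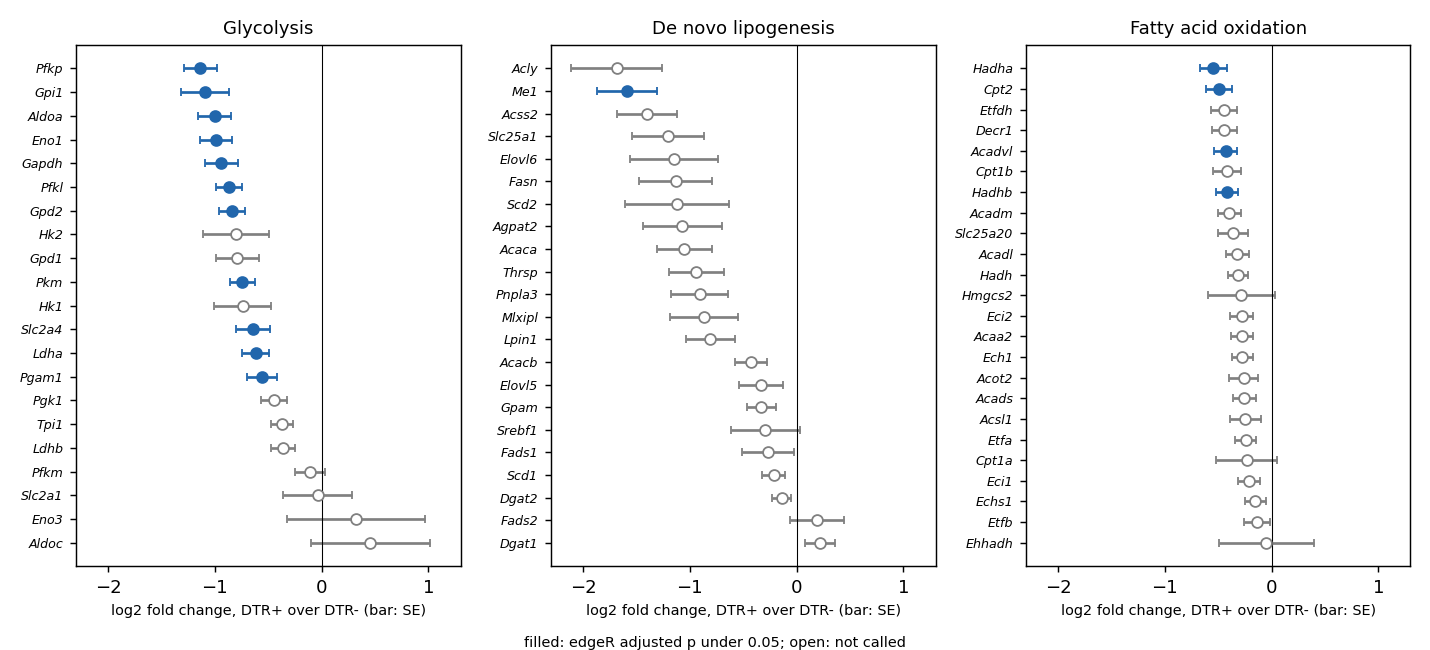
Log2 fold change (DTR+ over DTR-) with SE of all tested genes of glycolysis (left, listed after values were seen), de novo lipogenesis (middle) and fatty acid oxidation (right) in D3 BAT, filled where edgeR's adjusted p was under 0.05. Filled points number 11, 1 and 4, and the folds of fatty acid oxidation run from -0.54 to -0.05.

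For mitochondrial genes the calls depended on the scaling, where 1.29% of all genes fell with TMM. All 24 tested genes of fatty acid oxidation had folds below 0 with TMM and 21 with library totals, with medians of -0.28 and -0.08. The 4 called were Hadha, Hadhb, Acadvl and Cpt2, of the long-chain pathway, which fell by 0.54, 0.42, 0.43 and 0.49, and 0 were called with library totals or without any one library other than DTR- replicate 3, which left 3. For nuclear-encoded subunits of oxidative phosphorylation 72 of 75 folds were below 0 with TMM but 40 with library totals, and 3 were called with TMM (Uqcrc2, Ndufa11 and Ndufb5) and 0 with library totals or without any one library other than DTR- replicate 3, which left 2. Of the 13 mitochondrially encoded genes mt-Nd1 alone fell (-0.41 ± 0.08), and it was not called with library totals or without DTR+ replicate 1, DTR+ replicate 3 or DTR- replicate 2. The calls of mt-Nd1, Hadhb and Acadvl were also lost in the fit shared with D3 SAT (edgeR adjusted p = 0.17, 0.21 and 0.15).

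Ucp1 (chromosome 8, 83290352 to 83298452) had 5854, 3352 and 5247 CPM in DTR+ libraries, against 8998, 10096 and 7138 CPM in DTR- libraries. The lowest DTR- library stood above the highest DTR+ library, but the spread within each genotype was wide. The log2 fold of -0.86 ± 0.23 was not called (edgeR adjusted p = 0.12), and it ran from -1.03 to -0.66 with one library left out, passing the threshold without DTR+ replicate 2 alone. Of 28 tested thermogenic genes 2 fell and 0 rose with TMM, where 1.29% of all genes fell, and 0 fell with library totals. Letmd1 fell by 0.70 ± 0.15 and Otop1 by 0.57 ± 0.15. Letmd1 was lost without DTR- replicate 1, Otop1 without any library but DTR- replicate 3, and 3 fell without DTR- replicate 3. In the fit shared with D3 SAT the call of Otop1 was lost too (edgeR adjusted p = 0.6). Elovl3, a cold-induced elongase, had 236, 37.3 and 285 CPM in DTR+ libraries, against 624, 632 and 338 CPM in DTR- libraries, with DTR+ replicate 2 far below the rest. Dio2 and Ppargc1a, induced by adrenergic signals, overlapped. General adipocyte genes were near 0, with Adipoq at 0.18 ± 0.11, Fabp4 at -0.21 ± 0.10 and Pparg at -0.09 ± 0.14 (log2, SE). Of these 17 genes Plin4, of the lipid droplet, rose by 0.55 ± 0.14, a call lost without any library but DTR- replicate 2, and Slc2a4 fell.

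Genes of the depot's supporting cells were seldom called. Of 18 endothelial genes 0 were called, as were 0 of 9 pericyte, 0 of 5 Schwann cell and 0 of 5 red cell genes tested. The endothelial sum was 5338 to 6356 CPM in DTR+ libraries and 6582 to 6952 CPM in DTR- libraries. Fabp4, also an adipocyte gene, was among the most expressed members of that list, so the sum does not measure endothelial cells alone. Among fibroblast genes Ly6a (Sca-1), which interferons also induce, rose by 1.02 ± 0.13, and among 23 matrix genes Timp1, an inhibitor of metalloproteinases, by 2.23 ± 0.54, a call lost without any library but DTR- replicate 3. Cell cycle genes, 18 tested, had 0 called. Il4ra, the receptor chain for IL-4 and IL-13, rose by 1.06 ± 0.19, a call lost without DTR+ replicate 1, and the secreted retinol carrier Rbp4 fell by 0.82 ± 0.16 (edgeR adjusted p = 0.011), a call lost in the fit shared with D4 BAT (edgeR adjusted p = 0.079).

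Beyond the lists, the largest rises included Snhg15, a host of small nucleolar RNAs (2.83), and Csrnp1, a nuclear protein of the cysteine-serine-rich family (2.55). Csrnp1 had 29.1, 21.9 and 25.8 CPM in DTR+ libraries, against 4.93, 5.20 and 3.01 CPM in DTR- libraries. Sgk2, a serum- and glucocorticoid-regulated kinase, rose by 3.68 ± 0.74, from very few counts in DTR- BAT, and Plaur, the urokinase receptor, by 2.65 ± 0.57. Both calls were lost without DTR+ replicate 1 or DTR+ replicate 2, that of Sgk2 also without DTR- replicate 3, and that of Plaur without DTR- replicates 1 or 2. In the fit shared with D4 BAT the call of Sgk2 was lost too (edgeR adjusted p = 0.17). Among the larger falls, Fam57b, a protein of the TLC-domain family, had 9.05, 6.89 and 8.72 CPM in DTR+ libraries, against 47.9, 34.2 and 25.05 CPM in DTR- libraries, and fell by 2.11 ± 0.25 (edgeR adjusted p = 0.00038). Fam57b (chromosome 7, 126797668 to 126830219) overlaps Aldoa (126795234 to 126800751), which also fell, on the other strand. How reads in the overlap were assigned is not stated, so the 2 falls may not be separate. Cdh13, the T-cadherin that binds adiponectin, fell by 1.07 ± 0.18, a call kept with each library left out in turn and lost in the fit shared with D4 BAT (edgeR adjusted p = 0.095).

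BAT of the D4 experiment gave a second comparison that shares no library with this one. There 1021 genes were higher and 861 lower of 11695, 16.1% in all. Of the 261 genes higher in D3, 259 were tested in D4, where 208 were also higher and 0 lower, and of the 150 lower in D3, 148 were tested, where 110 were also lower and 0 higher. These are 79.7% and 73.3% of the D3 calls and 20.4% and 12.8% of the D4 calls, against 8.73% and 7.36% of all D4 genes called in those directions. The median D4 fold of the genes higher in D3 was 1.48, and that of the lower ones -0.68. Across 11315 genes, which are not independent replicates, the folds of D3 and D4 had a Pearson r of 0.671 and a Spearman rho of 0.568.

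The response groups appeared in D4 in the same direction. Irf1 had a log2 fold of 1.78 ± 0.14 in D3, against 2.64 ± 0.25 in D4, Ccl2 3.73 ± 0.33 in D3 against 4.95 ± 0.84 in D4, and Ciart 3.79 ± 0.25 in D3 against 4.21 ± 0.58 in D4. Hp had 1.07 ± 0.11 in D3 against 1.89 ± 0.32 in D4. Of interferon gamma targets 27 of 43 were called in D3 and 40 of 44 in D4, with medians of 1.20 and 2.41. Of clock genes 6 of 21 were called in D3 and 7 of 22 in D4, with Nr1d1 at 1.00 ± 0.14 in D3 and 1.23 ± 0.13 in D4. Ucp1 was -0.86 ± 0.23 in D3 and -1.08 ± 0.09 in D4 (edgeR adjusted p = 0.12 and 3.2e-06). Macrophage and monocyte genes were called higher in 4 of 19 cases in D3 and 15 of 23 in D4. More libraries entered D4, and these counts do not test a difference.

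The difference itself, tested as an interaction over the 14 libraries, called 0 of 12757 genes (edgeR), with 732 at an unadjusted p under 0.05, and DESeq2 called 4. The smallest adjusted p was that of Nlrc5, the activator of MHC class I genes, at 0.97 in D3 and 2.81 in D4, a difference of -1.85 ± 0.32 (log2, SE, edgeR adjusted p = 0.14). Leaving out D4 DTR+ replicate 1 called 11 genes and leaving out D4 DTR+ replicate 4 called 1.

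**Figure D5:**
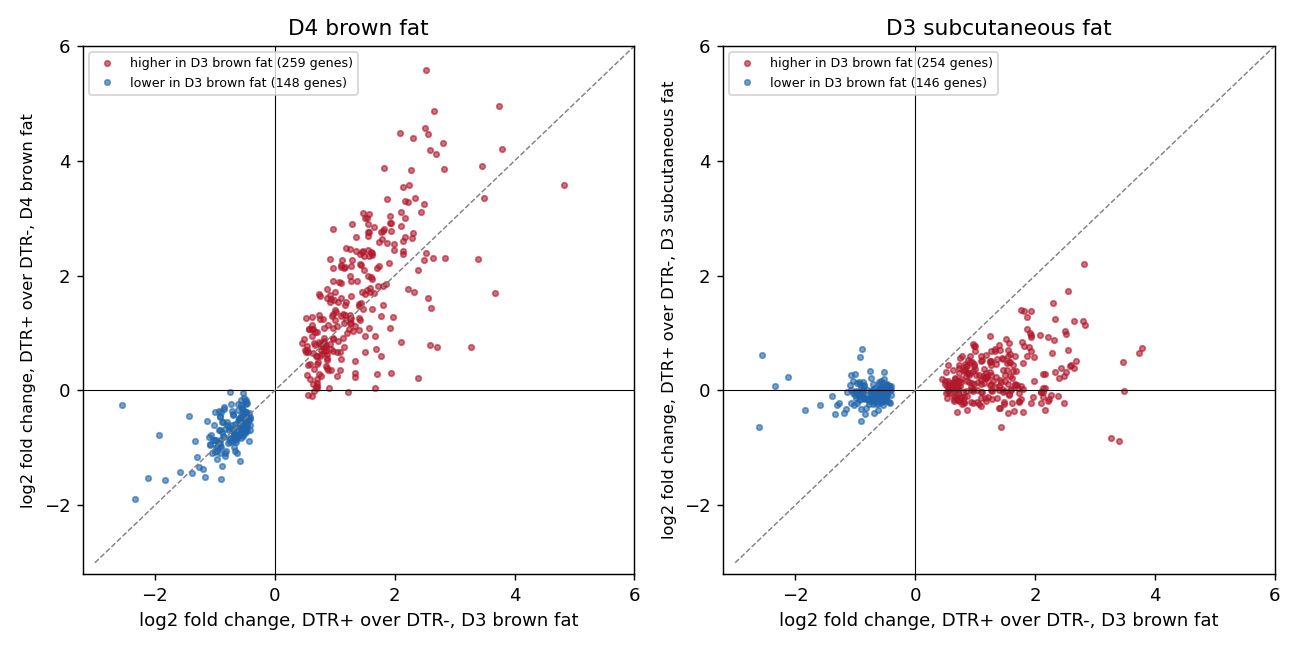
Log2 fold changes (DTR+ over DTR-) of the genes called in D3 BAT (horizontal axes; higher in red, lower in blue) against their folds in D4 BAT (left) and in D3 SAT (right), with the line of equal folds dashed. In D4 BAT 255 of 259 higher genes and all 148 lower genes keep their sign, with medians of 1.48 and -0.68. In D3 SAT 183 of 254 higher and 94 of 146 lower genes keep it, with medians of 0.18 and -0.06.

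In SAT of the same experiment the comparison called 0 of 12596 genes (edgeR, 629 at an unadjusted p under 0.05). The genes higher in D3 BAT had a median fold of 0.18 in SAT and those lower a median of -0.06. Of these, 183 of 254 higher and 94 of 146 lower genes kept their sign in SAT, where 6394 of all 12596 folds were above 0. Across 11179 genes the 2 sets of folds had a Pearson r of 0.127 and a Spearman rho of 0.083. Interferon gamma targets had a median of 1.20 in D3 BAT and 0.59 in D3 SAT, where 40 of 47 folds were above 0 and 0 were called. Igtp had 1.82 ± 0.13 in BAT and 1.38 ± 0.27 in SAT. Glycolysis genes, listed after values were seen, had a median of -0.74 in BAT and -0.02 in SAT, a contrast of lists that was not tested.

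Tested as an interaction over the 12 libraries, the effect differed between BAT and SAT in 9 of 13325 genes (0.0675%, edgeR adjusted p under 0.05). In 8 (0.06%) the effect was more positive in BAT, and in 1 (0.0075%) more negative. Among the 8 were Ccl2 (3.73 ± 0.33 in BAT, 0.66 ± 0.22 in SAT), Egr2 (3.49 ± 0.48 in BAT, -0.01 ± 0.30 in SAT) and Cd44, an adhesion receptor of leukocytes and stroma (2.11 ± 0.30 in BAT, -0.22 ± 0.18 in SAT). They also held Lcp1, an actin-bundling protein of leukocytes, and the interferon genes Rtp4, Gbp3 and Irf9. DESeq2 called 142 genes, the 9 among them. With 1 library left out the count was 63 without SAT DTR- replicate 3, 49 without BAT DTR- replicate 3, 17 without BAT DTR+ replicate 3 and 14 without SAT DTR+ replicate 1. It was 5 without BAT DTR+ replicate 1, BAT DTR- replicate 2 or SAT DTR+ replicates 2 or 3, and 4 without BAT DTR+ replicate 2 or SAT DTR- replicate 1. Ciart, at 3.79 ± 0.25 in BAT and 0.74 ± 0.67 in SAT, was not among the 9 (difference 3.07 ± 0.68, edgeR adjusted p = 0.089), nor was Irf1 (difference 0.93 ± 0.18, edgeR adjusted p = 0.059).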

How the data were processed

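The authors deposited raw read counts per gene for each library. Per the submitters' processing notes reads were aligned with STAR 2.7.3a to mm10 and counted with featureCounts, while for annotation, strand and multi-match settings nothing is stated (not given in the sources used here). All count columns were mapped to samples by title, and 0 columns were left unmapped. Genes passing edgeR's filter were tested in R 4.3.3 with edgeR 4.0.16 (TMM, quasi-likelihood F test, Benjamini-Hochberg adjusted p under 0.05), on the libraries of each comparison alone. Interactions were fitted over both comparisons. Values marked SE or following ± were back-calculated from these tests and were not estimated by the model as standard errors. Each is the absolute fold change, or difference of folds, divided by the square root of its F statistic. For genes with few counts such a value therefore shares the dependence of the fold on the prior count. DESeq2 1.42.0, RLE factors, no filter, a replicate block, shared fits, library totals and leaving out each library were alternatives. The procedure was tested on simulated data, where it missed part of the changes put in and made some false calls. Replicate pairs differed beyond sampling noise, with chi-square per degree of freedom of 7.14 to 15.3. Same-numbered DTR+ and DTR- libraries did not deviate together, so the numbers were not taken to pair them. With 3 libraries per group this check cannot exclude a pairing. Gene positions are from the GENCODE annotation of GRCm38, and promoter sequences are RefSeq's for GRCm38.p6.

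The comparison, its members and the gene lists were chosen with earlier results of these data known. Lists share members, among them Irf1, Irf7, Irf9, Psmb8, Socs3 and Stat3, so the counts of different lists are not separate results. Genes were named by rule: Foxp3, Il2ra, Ucp1, Ciart, Ccl2, Irf1 and Hp, up to 15 called genes in each direction by fold with at least 5 CPM, all members of 5 lists, up to 6 called members by p of each other list, and interaction genes. Where such a list had no call, its most expressed members were named by the rule. Named outside it, after their values were seen, were Acly, Adgre1, Adipoq, Aldoa, B2m, C1qa, Cd274, Cd3e, Cd4, Cidea, Cox8b, Dio2, Elovl3, Fasn, Fos, Gbp2, H2-K1, Icam1, Ifng, Il6, Isg15, Lyz2, Nlrc5, Nr4a1, Pfkm, Pparg, Ppargc1a, Tnf and Usp18. Some further genes are not reported here, though counts of genes include them.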

Additional observations from a re-analysis of the deposited data

Results flagged for a closer look

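The effect of the genotype was tested for a difference between BAT and SAT of the D3 experiment, and 9 genes passed (edgeR interaction, adjusted p under 0.05). They stand out because their effect in BAT differed from that in SAT by more than the spread between libraries. The differences, BAT minus SAT on the log2 scale with SE, were 1.62 ± 0.23 for Rtp4, 2.32 ± 0.34 for Cd44 and 3.06 ± 0.43 for Ccl2. They were 3.49 ± 0.59 for Egr2, 1.48 ± 0.25 for Lcp1, 1.25 ± 0.23 for Gbp3 and 1.31 ± 0.24 for Irf9. With 3 libraries in each group, no single library could be tested for standing apart from its group.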

How the results depend on the processing

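In D3 BAT 261 genes were higher and 150 lower. DESeq2 called 334 and 246, the fit without a filter on low counts 446 and 342, and library totals 565 and 63, while RLE factors and the 2 shared fits stayed within 1.5 times of both counts. The genes behind similar counts were not all the same. RLE factors kept 251 of the 261 higher and 148 of the 150 lower genes. The fit shared with D3 SAT kept 230 and 97, and the fit shared with D4 BAT 197 and 129. Leaving out one library gave 88 to 236 higher and 30 to 155 lower genes. A replicate block gave 194 higher and 99 lower, though the numbers were not taken to pair the libraries. The D3 against D4 difference called 0 genes, DESeq2 4, no filter 45 and the block 0, with 0 to 11 when one library was left out. The BAT against SAT difference called 9 genes, DESeq2 142, no filter 273 and the block 5, of which 3 are among the 9, with 4 to 63 when one library was left out. Of 93 called genes named in the text 42 stayed called in every setting, 50 with each library left out, and 0 changed direction in a setting. The count of changed directions could hardly be otherwise, because no called gene had DTR+ and DTR- values that overlapped. Same-numbered BAT and SAT libraries correlated in their deviations at 0.173, 0.143 and 0.078 in DTR+, each best with its own number, but at -0.143, -0.044 and -0.108 in DTR-, so the numbers were not taken to pair the depots. The cause of these changes was not tested. Genes with few counts, such as Foxp3 and most lymphocyte markers, could not be compared at this depth.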
